A study of Mus musculus with 6 samples.

Results

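Cadherins and protocadherins are the cell surface adhesion molecules taken here from RNA-seq of hippocampal cultures. Members were every row of the expression table whose symbol began with Cdh and a digit, or with Pcdh. This gave 93 symbols, which fell into 58 loci of the 47086 in the table. They comprised 23 cadherins, 12 non-clustered protocadherins and 58 clustered protocadherin symbols. Of the clustered symbols, 14 Pcdha and 22 Pcdhg symbols shared 1 locus with 1 set of values, which also carried 3 symbols of predicted genes outside the family, and the 22 Pcdhb genes each had a locus of their own.

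The study compared 3 WT and 3 *Fmr1* KO libraries made from total RNA of primary hippocampal neurons kept in culture for 14 days. Both genotypes were labelled C57BL/6, no library was labelled with a treatment, and *Fmr1* was the only altered gene in the labels. The methods give newborn pups as the source of the study's hippocampal cultures and, for its mice in general, male *Fmr1* KO mice and WT littermates of heterozygous mothers. The study as a whole drew on several culture batches and litters, but the pups' sex, the litter and the culture behind each library are not given. The p-values thus measure the spread between these libraries, which may be technical. The *Fmr1* KO is constitutive, so every cell type in the culture carried it. All values are FPKM, which scales fragment counts to transcript length and to the mapped reads of the library, and the depth of each library is unknown.

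Classical cadherins are calcium-dependent adhesion molecules that bind their like on the facing cell and hold the actin cytoskeleton through catenins. Type I members, such as N-cadherin, give strong adhesion, and type II members mark subsets of neurons and their synapses. The non-clustered delta-protocadherins adhere more weakly and signal to actin regulators. The clustered Pcdha, Pcdhb and Pcdhg genes lie in tandem, and each neuron uses its own set of their promoters, which gives it a surface identity for telling self from other. FMRP, the *Fmr1* product, is an RNA-binding protein that represses translation, so a transcript level need not follow the protein level.

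The whole-gene *Fmr1* level was not lower in the *Fmr1* KO libraries, so it does not check the labels, and each direction below rests on them. WT libraries had 19, 19.5 and 19.7 FPKM and *Fmr1* KO libraries 23.1, 21.8 and 18.5 FPKM (two-sided exact permutation test, p = 0.4, where 0.1 is the smallest p that 3 against 3 allows). Across loci, log2 values correlated between libraries at 0.97 to 0.978 within genotypes and 0.962 to 0.977 between them (Pearson's r), and no library stood apart in its median. The neuronal markers summed to 896 to 948 FPKM in WT and 944 to 1000 in *Fmr1* KO libraries, and the astrocyte markers to 1690 to 2000 and 1760 to 1950, so the cultures held both cell types. Sums of markers of the other cell types were as follows, and their part in any result was not tested. Excitatory neuron markers were at 844 to 881 FPKM in WT against 884 to 950 in *Fmr1* KO libraries, and inhibitory ones at 332 to 350 against 306 to 354. Proliferation markers were at 33.2 to 39.0 against 39.4 to 44.4, and oligodendrocyte lineage markers at 346 to 402 against 396 to 439. Microglial markers were at 5.24 to 7.37 against 1.06 to 3.05, with Aif1 at 0 in every library. Mural cell and fibroblast markers were at 47.5 to 52.0 against 38.7 to 46.8, most of it Dcn (means of 42.0 and 34.8), while Pdgfrb and Rgs5 overlapped and Col1a2 was separated and higher in *Fmr1* KO libraries (0.303 and 0.485). Endothelial markers were at 2.67 to 2.89 against 1.57 to 2.37, with Cldn5 at 0, and choroid plexus markers at 0.774 to 1.58 against 1.6 to 2.83, with Kl at 0. In these bulk samples, fewer cells of a type and less RNA per cell cannot be told apart.

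Of the 58 loci, 46 had a mean of at least 1 FPKM in either genotype and were tested with the other expressed loci, 13195 in all. None of the 46 passed an adjusted p of 0.05 in limma with Benjamini-Hochberg adjustment, against 0.265% of all tested loci (0.0909% higher and 0.174% lower in *Fmr1* KO libraries). At an unadjusted p below 0.05, 7 of the 46 were called (15.2%), 4 higher and 3 lower in *Fmr1* KO libraries. The share over all tested loci was 14.8%, with 6.99% higher and 7.77% lower, so the members' share was near the background. In 11 of the 46, all 3 *Fmr1* KO libraries lay above (7 loci) or below (4 loci) all 3 WT libraries. Such separation was found in 21.1% of all tested loci, 10.8% higher and 10.3% lower. All 11 had the smallest p of the exact permutation test, 0.1.

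The log2 change (*Fmr1* KO minus WT) of the 46 loci ran from -0.40 to 0.48, with a median of 0.017 and a median size of 0.07, against 0.005 and 0.085 over all tested loci. It was positive for 28 of the 46 (60.9%), where the share over all tested loci was 51.7%. This count rested on single libraries, since it was 21 without WT replicate 1 and 23 without *Fmr1* KO replicate 3. For 37 of the 46 the 95% interval of the log2 change lay within 0.5 in either direction, which is 1.41-fold. The 9 others were Cdh24, Cdh18, Cdh12, Pcdhb2, Pcdhb4, Pcdhb6, Pcdhb8, Pcdhb16 and Pcdhb21. Missing the threshold does not show that a level was equal in both genotypes, and these intervals give the size of change that the libraries still allowed.

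**Figure D1:**
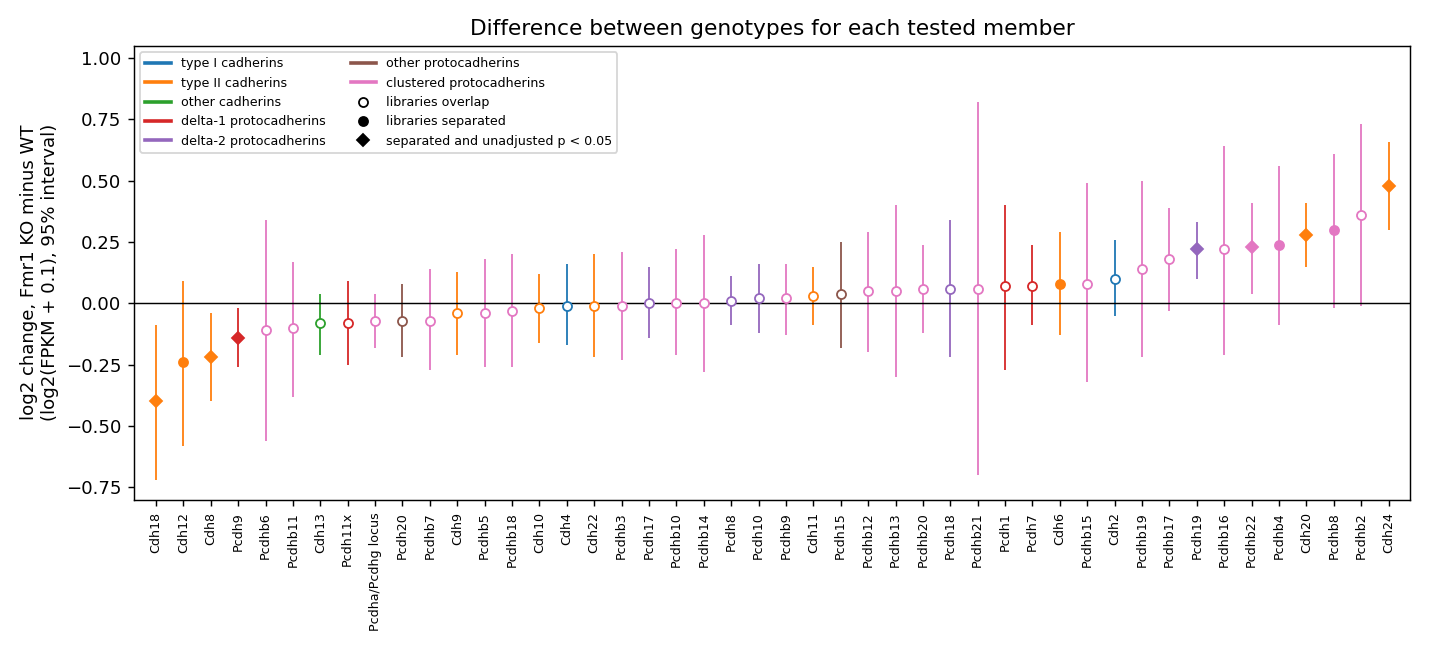
Log2 change of each of the 46 tested loci (vertical axis, *Fmr1* KO minus WT on the log2(FPKM + 0.1) scale; n = 3 libraries per genotype), in order of change (horizontal axis), with 95% intervals from limma. Cdh24 stands at the top with 0.48 and Cdh18 at the bottom with -0.40. Of the 28 loci with a positive change, Pcdh17, Pcdhb10 and Pcdhb14 are drawn at 0, as plotted values were rounded.

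The promoters of the 4 type II cadherins at an unadjusted p below 0.05, Cdh24, Cdh20, Cdh18 and Cdh8, are shown because this class held most of the separated members outside the gene clusters. Each window has 300 bases around a start site in RefSeq (GRCm38.p6), written 5′ to 3′ on the gene's strand. Which start the cultures used was not measured. The Cdh18 window (from 23036213) lies far inside that gene's locus (22548897 to 23474432), so it is not at the outermost start of the locus. The Cdh24 window (to 54641614) also lies inside its minus-strand locus, which reaches to 54642067. The Cdh20 window (to 104768569) ends before its locus begins (104768819). Capitals mark matches, on either strand, to a CCAAT box (CCAAT) or a GC box (GGGCGG).
Cdh24 (chr14:54641315-54641614, minus strand): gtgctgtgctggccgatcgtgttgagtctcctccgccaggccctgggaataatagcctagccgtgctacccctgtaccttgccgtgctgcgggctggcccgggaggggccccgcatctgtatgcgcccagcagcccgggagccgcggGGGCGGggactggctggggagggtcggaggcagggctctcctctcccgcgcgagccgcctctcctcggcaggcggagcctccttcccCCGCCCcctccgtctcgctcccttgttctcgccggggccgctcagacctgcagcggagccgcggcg
Cdh20 (chr1:104768270-104768569, plus strand): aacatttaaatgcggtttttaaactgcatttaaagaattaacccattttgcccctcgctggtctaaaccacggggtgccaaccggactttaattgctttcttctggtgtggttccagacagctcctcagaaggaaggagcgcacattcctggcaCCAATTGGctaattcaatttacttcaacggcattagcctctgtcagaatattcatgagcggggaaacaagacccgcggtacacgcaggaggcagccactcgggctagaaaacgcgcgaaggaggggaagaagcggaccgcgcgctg
Cdh18 (chr15:23036213-23036512, plus strand): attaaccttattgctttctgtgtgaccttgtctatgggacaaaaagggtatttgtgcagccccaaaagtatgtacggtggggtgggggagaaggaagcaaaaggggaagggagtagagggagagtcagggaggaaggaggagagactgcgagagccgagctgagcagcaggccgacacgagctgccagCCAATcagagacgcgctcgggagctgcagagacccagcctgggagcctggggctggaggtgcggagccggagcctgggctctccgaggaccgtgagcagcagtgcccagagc
Cdh8 (chr8:99416422-99416721, minus strand): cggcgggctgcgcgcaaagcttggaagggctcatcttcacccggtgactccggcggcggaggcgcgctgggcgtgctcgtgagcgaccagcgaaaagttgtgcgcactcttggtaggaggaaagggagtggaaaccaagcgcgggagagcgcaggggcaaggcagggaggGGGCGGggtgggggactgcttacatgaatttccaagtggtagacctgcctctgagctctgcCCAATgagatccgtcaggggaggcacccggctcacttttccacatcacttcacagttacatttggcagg

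The Cdh24 window was the richest of these in G and C (73.3%), with 30 CpG dinucleotides and 2 GC boxes, 1 on each strand. The Cdh20 window had 50.7% G and C and 2 CCAAT matches that overlap on opposite strands. The Cdh18 window had 60.3% G and C and 1 CCAAT match, and the Cdh8 window had 62.3%, 1 CCAAT match and 1 GC box. Both motifs thus lay in the window of a higher and of a lower gene. RefSeq windows matched 22 member genes, none of them clustered, with 25 windows in all. Cdh7 and Pcdh9 each had more than 1 window, and those of Pcdh9 overlap, so the windows are not all independent. The median G and C content of the 25 windows was 60.3% with 14 CpG, against 52.7% and 7 over all 32851 windows. A CCAAT match lay in 17 of the 25 windows (37.4% of all windows), a GC box in 9 (35.7%), and a TATA box (TATAAA) in 2 (13.6%). An E-box (CACGTG) lay in 1 (7.15%), and a cyclic AMP response element (TGACGTCA) in none (1.79%). No motif in this set holds another, and both strands were searched for each.

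Cadherins of type I were represented by Cdh2 (N-cadherin, the main classical cadherin of neural tissue) and Cdh4 (R-cadherin). Cdh2 had 45.5, 52.6 and 53.6 FPKM in WT and 52.3, 54.6 and 55.7 FPKM in *Fmr1* KO libraries. WT replicate 1 was the lowest library and the genotypes overlapped, with a log2 change of 0.10 (SE 0.07, limma with Benjamini-Hochberg adjustment, adjusted p = 0.518). Cdh4 was at 10.6 ± 0.695 and 10.5 ± 0.627 FPKM (mean ± SD, n = 3 each). The 3 other type I genes were not tested. Cdh1 (E-cadherin, of epithelia) was at 0 in all libraries but 1, Cdh3 (P-cadherin) reached at most 0.0643 FPKM, and Cdh15 (M-cadherin, of muscle) was at 0.231 to 0.55 FPKM. The 5 type I genes summed to 61.5 ± 4.98 FPKM in WT and 65.1 ± 2.39 FPKM in *Fmr1* KO libraries, and the genotypes overlapped.

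The type II cadherins were the class with the widest spread of changes. Of 13 genes, 10 were tested and 4 had an unadjusted p below 0.05 in limma, as 14.8% of all tested loci did. Cdh24 and Cdh20 were higher and Cdh18 and Cdh8 lower in *Fmr1* KO libraries. With Cdh6 above and Cdh12 below, 6 of the 10 were separated between genotypes, 3 in each direction (all tested loci, 21.1%). Their summed level overlapped between genotypes, at 91.8 ± 2.68 FPKM in WT and 92.8 ± 1.59 FPKM in *Fmr1* KO libraries. The class was singled out after its values were seen, and whether it differed from other classes was not tested.

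Cdh24 (chromosome 14, 54631992 to 54642067), a type II cadherin that can bind catenins, had the largest positive change of the members. It had 4.08, 3.71 and 3.76 FPKM in WT and 5.32, 5.64 and 5.27 FPKM in *Fmr1* KO libraries. Every *Fmr1* KO library lay above every WT library, with a gap wider than the range within either genotype. The log2 change was 0.48 (SE 0.08, 95% interval 0.30 to 0.66; limma with Benjamini-Hochberg adjustment, adjusted p = 0.0593). The adjusted p was 0.041 when the trend with gene span was removed from each library, and between 0.0594 and 0.23 in the other alternatives.

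Cdh20 (chromosome 1, 104768819 to 104995481) is a type II cadherin of the nervous system. Its values were 8.85, 9.44 and 9.25 FPKM in WT and 11.2, 11.3 and 10.9 FPKM in *Fmr1* KO libraries. The libraries of each genotype lay close together and did not overlap with the other genotype. The log2 change was 0.28 (SE 0.06, limma with Benjamini-Hochberg adjustment, adjusted p = 0.0913). Its neighbours on chromosome 1, Cdh7 and Cdh19, stayed below the minimum. Cdh7 was at 0.363 to 0.824 FPKM. Cdh19, which marks Schwann cell precursors and other glia, had 0.759, 0.735 and 0.768 FPKM in WT and 0.536, 0.666 and 0.676 FPKM in *Fmr1* KO libraries, separated and lower but untested.

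Cdh18 (chromosome 15, 22548897 to 23474432), a cadherin of the central nervous system, had the largest negative change. It had 2.31, 2.95 and 3 FPKM in WT and 2.10, 1.83 and 2.22 FPKM in *Fmr1* KO libraries. WT replicate 1 came near the *Fmr1* KO libraries, and the genotypes did not overlap (log2 change -0.40, SE 0.14, limma with Benjamini-Hochberg adjustment, adjusted p = 0.242). Cdh8 (chromosome 8, 99007127 to 99416486), which guides synaptic targeting of selected circuits, had 8.53, 10.1 and 9.22 FPKM in WT and 8.28, 7.62 and 7.92 FPKM in *Fmr1* KO libraries. WT replicate 1 was again the WT library nearest to the *Fmr1* KO values (log2 change -0.22, SE 0.08, limma with Benjamini-Hochberg adjustment, adjusted p = 0.251). Cdh12 (chromosome 15, 20448879 to 21598421), another brain cadherin, had 1.63, 1.69 and 1.43 FPKM in WT and 1.41, 1.24 and 1.30 FPKM in *Fmr1* KO libraries. The gap between the genotypes was narrow, with an adjusted p of 0.49 in limma with Benjamini-Hochberg adjustment. Cdh6 had 2.87, 2.71 and 2.82 FPKM in WT and 3.10, 2.89 and 2.89 FPKM in *Fmr1* KO libraries, also just separated, with an adjusted p of 0.751 in the same test.

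Cdh9 and Cdh10, which with Cdh6 belong to 1 subfamily of type II cadherins and act in hippocampal synapse specificity, both overlapped between genotypes. Cdh10 was the highest type II gene, with 20.4, 21.1 and 23.1 FPKM in WT and 21.9, 20.8 and 21.1 FPKM in *Fmr1* KO libraries. Its log2 change was -0.02 with a 95% interval of -0.16 to 0.12. Cdh9 was at 12.5 ± 0.792 and 12.1 ± 0.896 FPKM. Both genes lie on chromosome 15 with Cdh6, Cdh12 and Cdh18, so of these 5 genes 2 were separated and lower, 1 was separated and higher, and 2 overlapped. Cdh11, which is also expressed by mesenchymal cells, was at 20.3 ± 0.751 and 20.7 ± 0.655 FPKM and Cdh22 at 6.44 ± 0.811 and 6.39 ± 0.0296 FPKM. Cdh5 (VE-cadherin, of endothelium) was below the minimum in all libraries, at 0.0782 to 0.373 FPKM.

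**Figure D2:**
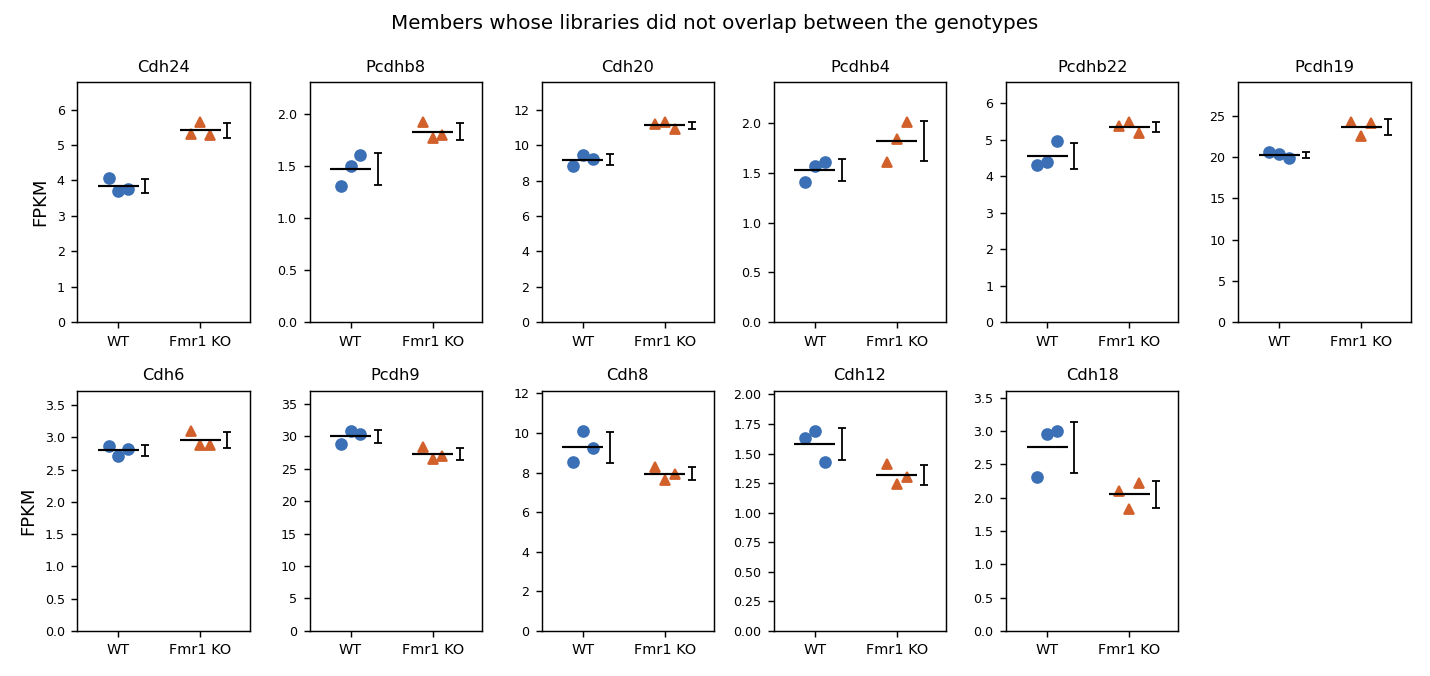
FPKM (vertical axes, from 0) of the 11 tested members whose libraries did not overlap between WT (circles) and *Fmr1* KO (triangles); each symbol is 1 library, lines are means and bars are SD (n = 3). The gap is widest against its spread in Cdh24 and Cdh20, and narrow in Cdh6, Cdh12 and Pcdhb4.

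Among the other cadherins, Cdh13 (T-cadherin, which is held in the membrane by a lipid anchor and lacks the catenin-binding tail) was the only one tested. It had 44.0, 46.8 and 42.6 FPKM in WT and 43.9, 40.7 and 41.2 FPKM in *Fmr1* KO libraries. *Fmr1* KO replicate 1 lay within the WT range (log2 change -0.08, SE 0.05, limma with Benjamini-Hochberg adjustment, adjusted p = 0.524). Cdh23, a tip-link protein of hair cells, was at 0.532 to 0.832 FPKM. Cdh16 was at 0 in every library, and Cdh17 and Cdh26, which are cadherins of epithelia, reached at most 0.0427 FPKM. These epithelial and sensory members were thus all below the minimum.

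The non-clustered protocadherins were among the most abundant members. Of the 11 tested, 2 were separated between genotypes, 1 in each direction, where 21.1% of all tested loci were. The 4 delta-1 genes summed to 104 ± 12 FPKM in WT and 103 ± 5.76 FPKM in *Fmr1* KO libraries, and the 5 delta-2 genes to 147 ± 3.09 and 151 ± 2.27 FPKM. Both sums overlapped between genotypes.

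Of the delta-1 genes, Pcdh9 (chromosome 14, 93013700 to 93890724) was separated. It had 28.8, 30.8 and 30.3 FPKM in WT and 28.3, 26.5 and 26.9 FPKM in *Fmr1* KO libraries. *Fmr1* KO replicate 1 lay just under WT replicate 1, so the genotypes did not overlap but nearly met (log2 change -0.14, SE 0.05, limma with Benjamini-Hochberg adjustment, adjusted p = 0.279). Pcdh1 had 33.5, 48.4 and 47.3 FPKM in WT and 37.9, 46.8 and 49.7 FPKM in *Fmr1* KO libraries. Replicate 1 of both genotypes was far below the other two, which left a 95% interval of the log2 change from -0.27 to 0.40. Pcdh7 was at 20.4 ± 1.81 and 21.4 ± 0.694 FPKM, and 21.1% of its annotated exon bases overlap a transcript on the opposite strand. Whether reads were counted by strand is not given, so the 2 transcripts may not be told apart. Pcdh11x, on the X chromosome, was the lowest of the 4 with 9.75 to 11.7 FPKM in WT and 9.81 to 10.3 FPKM in *Fmr1* KO libraries.

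Of the delta-2 genes, Pcdh19 (X chromosome, 133582860 to 133707257), an epilepsy gene whose product acts together with N-cadherin, was separated and higher. It had 20.6, 20.3 and 19.9 FPKM in WT and 24.2, 22.5 and 24.1 FPKM in *Fmr1* KO libraries. The WT libraries lay within a narrow range and all *Fmr1* KO libraries lay above it (log2 change 0.22, SE 0.05, limma with Benjamini-Hochberg adjustment, adjusted p = 0.13). The gene lies 64.9 Mb from *Fmr1* on the X chromosome, where Pcdh11x, 51.6 Mb away, was not separated. X-linked levels can move with the sex of the pups. Xist, which is expressed from the inactive X, had 59.9, 77.9 and 74.6 FPKM in WT and 53.0, 61.3 and 60.8 FPKM in *Fmr1* KO libraries. The Y-linked Eif2s3y had 9.26, 9.68 and 9.65 FPKM in WT and 22.4, 21.0 and 19.6 FPKM in *Fmr1* KO libraries (log2 change 1.13, SE 0.06, limma with Benjamini-Hochberg adjustment, adjusted p = 0.000183). Both sex-linked genes were chosen after their values were seen. Both were thus detected in every library, with more of the Y-linked transcript in *Fmr1* KO libraries. All genes here were read from the same libraries, so sex and genotype cannot be told apart for Pcdh19 or for any other gene, on autosomes too.

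Pcdh8 (also known as arcadlin, whose product acts in the uptake of N-cadherin from synapses) was the most abundant protocadherin outside the clusters. It had 63.7, 61.2 and 61.8 FPKM in WT and 62.2, 61.0 and 64.7 FPKM in *Fmr1* KO libraries. The genotypes overlapped, and the 95% interval of the log2 change ran from -0.09 to 0.11, among the narrowest of the members. Pcdh10, which acts in synapse elimination, had 34.7, 38.1 and 39.9 FPKM in WT and 36.8, 39.5 and 37.7 FPKM in *Fmr1* KO libraries. Pcdh17, which acts in presynaptic assembly, had 22.9, 26.3 and 26.3 FPKM in WT and 24.6, 25.3 and 25.5 FPKM in *Fmr1* KO libraries. The log2 change was 0.02 for Pcdh10 (95% interval -0.12 to 0.16) and 0.00 for Pcdh17 (-0.14 to 0.15). Pcdh18 was the lowest of the class at 1.77 ± 0.107 and 1.85 ± 0.093 FPKM. Outside both delta groups, Pcdh20 was at 17.9 ± 0.835 and 17.0 ± 1.15 FPKM. Pcdh15, the partner of Cdh23 in hair cells, was at 7.28 ± 0.919 and 7.43 ± 0.361 FPKM, and Pcdh12, an endothelial member, was below the minimum at 0.0653 to 0.188 FPKM.

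The clustered genes lie on chromosome 18, where the table gives 1 region for all of them (36930285 to 37841873). Within Pcdha and within Pcdhg, variable first exons are spliced to constant exons. For reasons not given, the symbols of both shared 1 locus. It was the highest member, with 322, 355 and 351 FPKM in WT and 321, 327 and 329 FPKM in *Fmr1* KO libraries, and held 37.1% to 38.9% of all member FPKM in a library, any reads of the 3 predicted genes included. WT replicate 1 fell among the *Fmr1* KO libraries, while the other two WT libraries lay above them (log2 change -0.07, SE 0.05, limma with Benjamini-Hochberg adjustment, adjusted p = 0.558). Without WT replicate 1 the log2 change was -0.11 (adjusted p = 0.268 in the same test). The choice among the 36 first-exon symbols of this locus cannot be read from a single value, so a shift from one isoform to another was not measured.

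The Pcdhb genes are single-exon genes with no constant exons, and each had its own value. They summed to 66 ± 3.44 FPKM in WT and 69.1 ± 1.96 FPKM in *Fmr1* KO libraries, and the genotypes overlapped. Pcdhb9 was the highest at 7.19 ± 0.106 and 7.27 ± 0.201 FPKM, and Pcdhb6 the lowest tested gene at 1.17 ± 0.105 and 1.08 ± 0.233 FPKM. The means thus ran from 1.13 to 7.23 FPKM over the 21 tested genes, 6.4 times apart. The order of the 22 genes hardly differed between genotypes, with a Spearman's rho of 0.99 between the mean levels and of 0.96 to 0.99 over the 15 pairs of libraries. These are correlations across genes that share libraries and resemble each other in sequence, given as a description.

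Pcdhb22 was the only clustered gene with an unadjusted p below 0.05. It had 4.32, 4.38 and 4.96 FPKM in WT and 5.37, 5.48 and 5.19 FPKM in *Fmr1* KO libraries. The genotypes did not overlap, and WT replicate 3 came nearest to the *Fmr1* KO libraries (log2 change 0.23, SE 0.08, limma with Benjamini-Hochberg adjustment, adjusted p = 0.258). Its annotated exon shares 455 bases with that of Pcdhb21, whose log2 change was 0.06 with a 95% interval of -0.70 to 0.82. Pcdhb8 had 1.31, 1.5 and 1.61 FPKM in WT and 1.92, 1.77 and 1.8 FPKM in *Fmr1* KO libraries. Pcdhb4 had 1.41, 1.57 and 1.61 FPKM in WT and 1.61, 1.84 and 2.01 FPKM in *Fmr1* KO libraries. Both were separated, and for Pcdhb4 the highest WT and the lowest *Fmr1* KO library differed by less than the rounding shown. Their log2 changes were 0.30 (SE 0.14) and 0.24 (SE 0.14), with adjusted p of 0.369 and 0.485 in limma with Benjamini-Hochberg adjustment. Pcdhb2 had a larger log2 change of 0.36 (SE 0.16), but its libraries overlapped.

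Of the 21 tested Pcdhb genes, 15 had a positive and 6 a negative log2 change, with 12 positive without WT replicate 1 or without *Fmr1* KO replicate 3. The genes not described so far were Pcdhb3, Pcdhb5, Pcdhb7 and Pcdhb10 to Pcdhb20, all with overlapping libraries. Among them the log2 change ran from -0.10 (Pcdhb11) to 0.22 (Pcdhb16). Pcdhb1 was below the minimum at 0.0249 to 0.335 FPKM. Near-identical stretches of these genes can share reads, and how the counting split them is not given, so each gene's level is uncertain. An annotated antisense transcript also overlaps 63.5% of the exon bases of Pcdhb12.

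**Figure D3:**
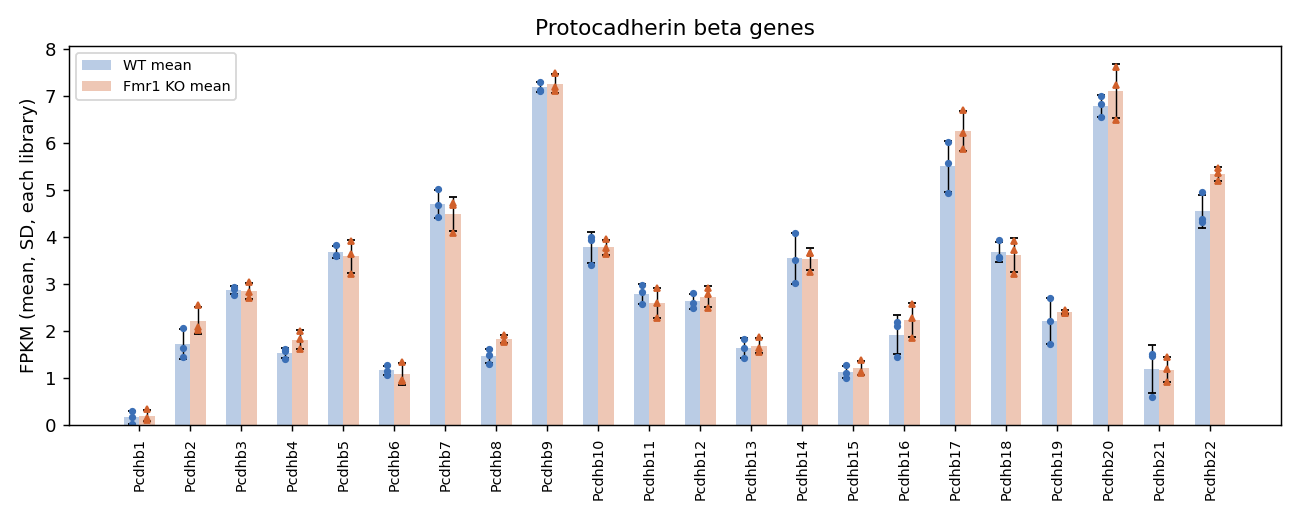
Mean FPKM (bars, vertical axis from 0) of the 22 Pcdhb genes (horizontal axis) in WT and *Fmr1* KO libraries, with SD (n = 3) and each library as a symbol. Pcdhb9, Pcdhb20 and Pcdhb17 are the highest in both genotypes, and only Pcdhb4, Pcdhb8 and Pcdhb22 have libraries that do not overlap.

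In the order of levels over all members, the shared Pcdha and Pcdhg locus came first, then Pcdh8, Cdh2, Pcdh1, Cdh13, Pcdh10, Pcdh9, Pcdh17, Pcdh19 and Cdh10. Neighbours in this order often could not be ranked. Of the 45 neighbouring pairs among the tested members, 13 kept their order in all 6 libraries, and in 9 the ranges over libraries did not overlap. Cdh2 stayed above Pcdh1 in every library, whereas Pcdh1 and Cdh13 changed places between libraries, as did Pcdh19, Cdh10 and Pcdh7. Levels below 10 FPKM were found for 29 of the 46, and the median member was at 5.42 FPKM, against 10.2 over all tested loci.

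**Figure D4:**
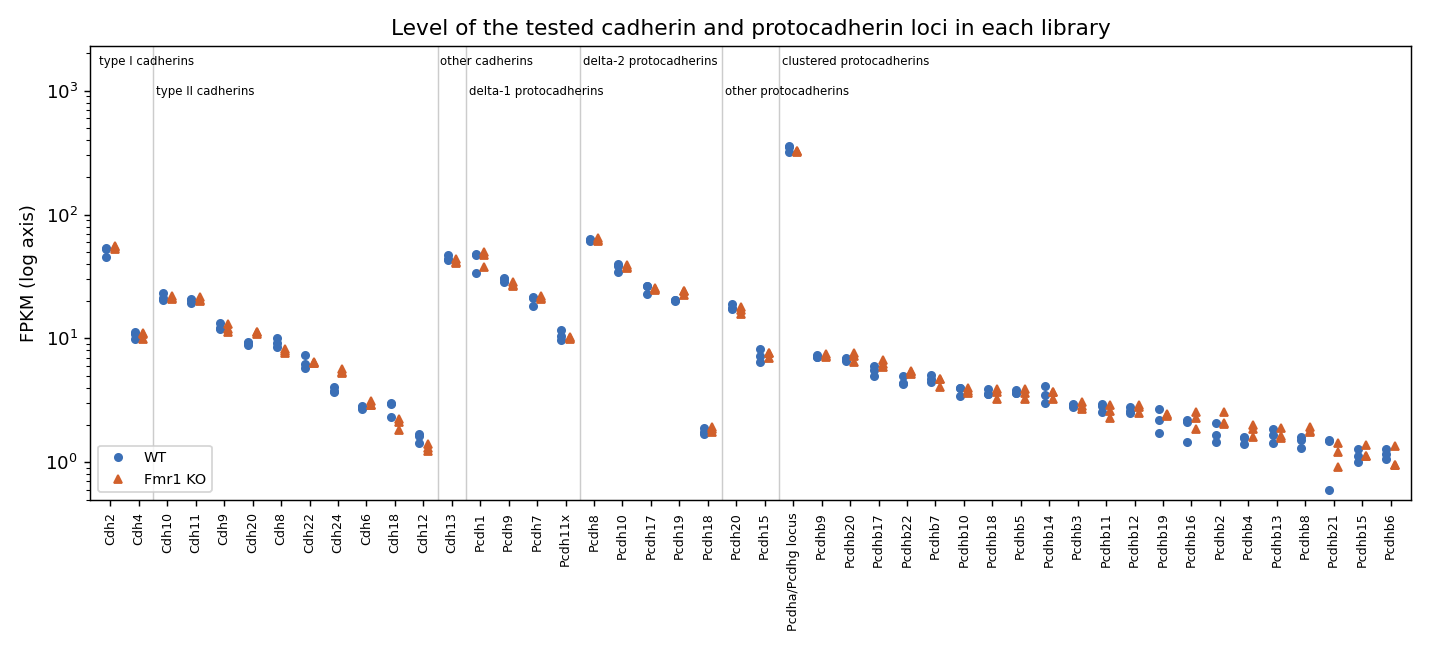
FPKM (vertical axis, log scale) of the 46 tested loci (horizontal axis, by class and level) in each WT (circles) and *Fmr1* KO library (triangles). The shared Pcdha and Pcdhg locus is the highest at 321 to 355 FPKM, and the symbols of both genotypes lie together for most loci.

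The spread between libraries of a genotype was that of other loci, with a median SD of 0.097 on the log2 scale for members and for all tested loci. Pcdhb21 varied most (0.53), with 0.602 FPKM in WT replicate 1 against 1.48 and 1.51 FPKM in the other WT libraries. It was followed by Pcdhb16 (0.275) and Pcdh1 (0.255), and Pcdhb9 (0.031) and Pcdh8 (0.038) varied least. WT replicate 1 had the lowest value of the 3 WT libraries for 30 of the 46 members (65.2%), and for 37.0% of all tested loci. *Fmr1* KO replicate 1 was the lowest of its genotype for 15 (32.6%; all tested loci, 35.4%). All members together summed to 833, 911 and 906 FPKM in WT and 865, 872 and 888 FPKM in *Fmr1* KO libraries, so that the *Fmr1* KO libraries lay between WT replicate 1 and the other WT libraries.

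The counts of called members also rested on single libraries. The 3 lower calls (Cdh18, Cdh8 and Pcdh9 at an unadjusted p below 0.05) became 0 without WT replicate 2 or without *Fmr1* KO replicate 2. They became 1 without WT replicate 3 or without *Fmr1* KO replicate 3, and 4 without WT replicate 1, when the shared Pcdha and Pcdhg locus was added. Cdh24, Cdh20 and Pcdh19 kept an unadjusted p below 0.05 whichever library was left out, and Pcdhb22 had 0.0523 to 0.0688 without WT replicate 1, WT replicate 2, *Fmr1* KO replicate 1 or *Fmr1* KO replicate 2. Without the mean-variance trend, 7 members were called higher and 4 lower, and the added ones were Pcdhb2, Pcdhb4, Pcdhb8 and Cdh12.

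The 4 tested members that were separated and lower in *Fmr1* KO libraries were all long genes. Their RefSeq spans were 393 kb (Cdh8), 879 kb (Pcdh9), 929 kb (Cdh18) and 1150 kb (Cdh12). Cdh19, which was separated and lower but below the minimum, spanned 89.6 kb. The 7 tested members that were separated and higher spanned 2.34 to 227 kb, with the single-exon genes Pcdhb4, Pcdhb8 and Pcdhb22 among them. Of the 24 tested members outside the clusters, 9 spanned at least 300 kb, of which 7 had a negative log2 change (median -0.083). Of the 15 shorter ones, 4 had a negative log2 change (median 0.031). Over the 484 tested loci of at least 300 kb in the whole table, 46.5% had a negative log2 change, with a median of 0.01. Spearman's rho between span and log2 change was -0.63 over the 13 tested cadherins and -0.44 over the 24 members outside the clusters, and -0.40 over all 46, against 0.06 over all 13195 tested loci. It was -0.12 within the 9 long and 0.18 within the 15 shorter members. These correlations are across genes of the same libraries and are a description. The limit of 300 kb was set after the values were seen. With the span trend of all tested loci removed from each library, the log2 changes were -0.40 for Cdh18, -0.23 for Cdh8 and -0.14 for Pcdh9. That trend was slight (rho 0.06), so its removal could move these values little and cannot show what part span had.

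**Figure D5:**
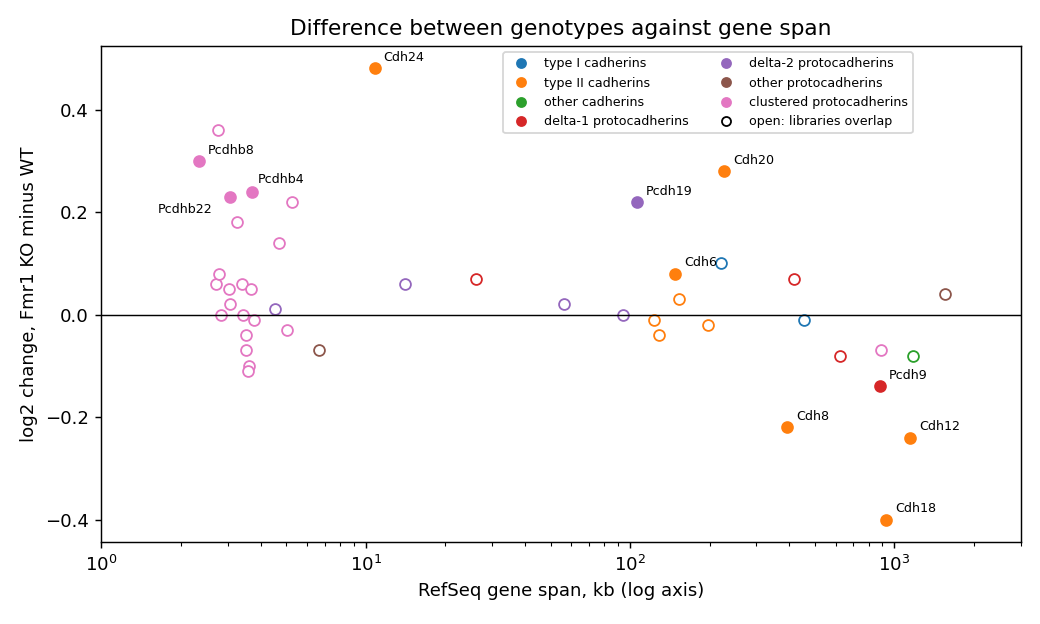
Log2 change (vertical axis, *Fmr1* KO minus WT) of the 46 tested loci against their RefSeq span (horizontal axis, kb, log scale); filled symbols are the 11 members whose libraries did not overlap. The 4 separated members below 0 lie at 393 to 1150 kb, and the 7 above 0 at 2.34 to 227 kb.

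Genes that work with cadherins and protocadherins were read from a list of 53, of which 47 were tested. None passed an adjusted p of 0.05 in limma with Benjamini-Hochberg adjustment. At an unadjusted p below 0.05, 5 were higher (Ctnnb1, Jup, Afdn, Adam10 and Rad21) and 3 lower (Clstn3, Wasf1 and Psen2) in *Fmr1* KO libraries. This was 17.0% of the 47, where all tested loci had 14.8%, and 13 were separated (8 higher and 5 lower), where 21.1% of all tested loci were. The catenins are given as a group, and Afdn, Psen2 and Clstn3 because they were among the 5 listed genes with the lowest unadjusted p. The other listed genes given with values were chosen after those were seen. The log2 change was positive for 32 of the 47 (68.1%; all tested loci, 51.7%), and for 24 without WT replicate 1. The 3 lower calls became 0 without *Fmr1* KO replicate 2, and 1 without *Fmr1* KO replicate 3, WT replicate 1 or WT replicate 2, and the 5 higher calls became 3 without WT replicate 1 or *Fmr1* KO replicate 3.

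The catenins, which tie classical cadherins to actin, gave the lowest p of the list. Ctnnb1 (beta-catenin, which also carries Wnt signals) had 296, 292 and 301 FPKM in WT and 331, 335 and 333 FPKM in *Fmr1* KO libraries. The libraries of each genotype lay within a narrow range, and the genotypes did not overlap (log2 change 0.17, SE 0.04, limma with Benjamini-Hochberg adjustment, adjusted p = 0.13). Jup (plakoglobin, its close relative) had 5.22, 5.60 and 5.30 FPKM in WT and 6.40, 6.07 and 5.99 FPKM in *Fmr1* KO libraries, again without overlap (log2 change 0.19, adjusted p = 0.261 in the same test). Ctnna2, the neuronal alpha-catenin, and Ctnnd1 (p120-catenin, which holds cadherins at the membrane) were separated and higher as well, with log2 changes of 0.09 and 0.15 and adjusted p of 0.402 and 0.352 in limma with Benjamini-Hochberg adjustment. Ctnna1 and Ctnnd2 overlapped, each with a log2 change of 0.01. Ctnna3 was below the minimum. All 6 tested catenins had positive log2 changes, but 4 did without WT replicate 1 or without *Fmr1* KO replicate 2, and 5 with the span trend removed. Their summed level was 438 to 453 FPKM in WT and 479 to 495 FPKM in *Fmr1* KO libraries. Ctnnb1 made up most of this difference, with a mean of 296 of 445 FPKM in WT and 333 of 487 FPKM in *Fmr1* KO libraries.

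Of the 14 actin and signalling partners, Afdn (afadin, of nectin junctions) was at 17.1 ± 1.01 FPKM in WT and 19.7 ± 0.306 FPKM in *Fmr1* KO libraries (log2 change 0.20, SE 0.06, limma with Benjamini-Hochberg adjustment, adjusted p = 0.185). Wasf1 (WAVE1), a subunit of the WAVE complex to which some delta-protocadherins bind, was at 75.8 ± 4.03 and 69.5 ± 2.34 FPKM (log2 change -0.13, adjusted p = 0.323 in the same test). The WAVE subunit Nckap1 was separated and lower at 178 ± 4.42 and 166 ± 4.26 FPKM, and Cyfip1, Cyfip2, Abi1 and Abi2 overlapped. The 3 proteases on the list cut cadherins and protocadherins at the membrane. Adam10 was at 24.5 ± 1.02 and 27.0 ± 0.718 FPKM and Psen2 at 9.96 ± 0.218 and 8.78 ± 0.511 FPKM, both separated, with adjusted p of 0.271 and 0.256 in limma with Benjamini-Hochberg adjustment.

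Among the 17 other cadherin superfamily genes, 13 were tested. Clstn3 (calsyntenin-3, a postsynaptic adhesion protein) was at 116 ± 0.652 FPKM in WT and 108 ± 1.33 FPKM in *Fmr1* KO libraries (log2 change -0.11, SE 0.04, limma with Benjamini-Hochberg adjustment, adjusted p = 0.267). Ret was separated and lower, at 1.56 ± 0.15 and 1.28 ± 0.0581 FPKM. Celsr3 was listed at 0 in every library. Of the 12 regulators of the clustered genes, which include CTCF and the cohesin subunits that loop enhancers to their promoters, 11 were tested. Rad21 (a cohesin subunit) was separated, at 50.9 ± 1.14 and 54.9 ± 1.06 FPKM (log2 change 0.11, SE 0.04, limma with Benjamini-Hochberg adjustment, adjusted p = 0.298). Ctcf was at 16.9 ± 0.468 and 17.6 ± 0.572 FPKM, with overlap. All 11 log2 changes were positive, and 8 were so without WT replicate 1, without *Fmr1* KO replicate 3 or with the span trend removed.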

How the data were processed

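RNA from WT and *Fmr1* KO hippocampal cultures was sequenced, with 3 libraries per genotype. Per the methods, adapters were removed (Fastx Clipper), reads were trimmed (sickle) and aligned to GRCm38 (TopHat2), and genes were assembled (Cufflinks). The authors deposited FPKM for each library. Tool versions, annotation and library scaling were not given in the sources used here. Columns of group FPKM, fold changes, p-values and q-values of the authors' own comparison by Cuffdiff were not used.

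Loci were counted once each and tested on log2(FPKM + 0.1) with R 4.3.3 and limma 3.58.1 (two-sided, mean-variance trend, genotype as the only term, Benjamini-Hochberg adjustment), for the 13195 loci with a mean of at least 1 FPKM in either genotype. The pseudocount understates changes of low loci. The files give no depth, and the libraries' spread sets the precision. The fit was tested on simulated data. Coordinates are from the table, counted from 1; spans and promoters are from RefSeq and exon overlaps from GENCODE. Values per library are given for members at an unadjusted p below 0.05, separated members and the 10 most abundant members. Members, classes and lists were chosen with earlier results of these data known. Alternatives changed the pseudocount, minimum, centring, trend, gene span, replicate block and libraries.

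No pairing of same-numbered libraries is given, and none was used in the main fit. Their deviations from the genotype means correlated at 0.243, 0.0577 and 0.0801 for replicates 1, 2 and 3. Libraries of unlike number correlated at -0.152 to 0.0781, and every such pair with a replicate 1 was negative. Replicate 1 of both genotypes may thus share a factor, which was not tested.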

Additional observations from a re-analysis of the deposited data

How the results depend on the processing

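Of 261 values of the 19 members given in full under the alternatives, 248 kept their direction and side of an adjusted p of 0.05. No member passed that limit in the main fit, so this count does not show whether calls at an unadjusted p held. Some of the 248 values crossed an unadjusted p of 0.05 in limma. Cdh18 had 0.0176 in the main fit and 0.0621 without WT replicate 2. Cdh12 had 0.137 in the main fit and 0.0226 without the mean-variance trend. Cdh24 passed the adjusted p limit (0.041) with the span trend removed, so that 1 member was then called higher. No member was called at an adjusted p in any other alternative. The 12 sign changes were in members near 0. With 1 library left out, Pcdh10 ran from -0.036 to 0.063, Pcdh17 from -0.064 to 0.038, Pcdh8 from -0.015 to 0.028, Cdh10 from -0.057 to 0.031 and Pcdh1 from -0.104 to 0.183. Pcdh10 was at -0.036 without WT replicate 1 and -0.009 without *Fmr1* KO replicate 2. Pcdh17 was at -0.001 after centring, -0.018 with the span trend removed, and -0.064, -0.002 and -0.007 without WT replicate 1, *Fmr1* KO replicate 2 and *Fmr1* KO replicate 3. Pcdh8 was at -0.003 without WT replicate 2 and -0.015 without *Fmr1* KO replicate 3. Pcdh1 was at -0.104 without WT replicate 1 and -0.012 without *Fmr1* KO replicate 3, and Cdh10 at 0.031 without WT replicate 3. The cause was not tested.

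Leaving out 1 library at a time gave 3 to 5 members higher and 0 to 4 lower at an unadjusted p below 0.05, and 3 to 5 higher and 0 to 3 lower associated genes. Without the trend, 7 members were higher. Separated members were 4 higher and 2 lower at a minimum of 5 FPKM, where fewer loci enter. Over all tested loci, 12 were higher and 23 lower at an adjusted p below 0.05. The higher count was 6 without a minimum, 20 at a minimum of 5, 7 without the trend, 21 with the span trend removed and 5 to 7 with 1 library left out. The lower count was 9 without a minimum, 14 without the trend and 8 to 13 with 1 library left out. At an unadjusted p, 603 to 1017 loci were higher with 1 library left out, against 922, with 603 without *Fmr1* KO replicate 2.

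With the replicate number as a block, 29 loci were higher and 36 lower at an adjusted p below 0.05, 4 members higher and 3 lower at an unadjusted p, and 9 associated genes higher. In the labels the libraries share only a number. Replicate 1 correlated best with its own number in both genotypes, and replicate 2 in neither.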
